A study of Mus musculus with 383 samples.

Results

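Kept Epcam-positive tumour cells were ranked by Krtdap, a gene for a small secreted protein of stratified epithelium, and the 20 cells with most Krtdap (Krtdap-high) were compared with the 20 cells with least (Krtdap-low). Of 70 labelled Epcam-positive single cells, 62 were kept and 8 were left out, and the 22 kept cells between both sets are called the middle cells. Kept cells had 100000 or more gene reads and 2000 or more detected genes, with mitochondrial genes taking no more than 20% of the gene reads and spike-ins no more than 50% of all reads. The sets were chosen by the measured Krtdap level, in counts per 1000000 gene reads (CPM), so the Krtdap difference is a description of the choice and supports nothing else.

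The cells came from skin squamous cell carcinomas of mice whose engineered alleles include Lgr5CreER, p53fl/fl and Rosa26-YFP. These are not all the engineered alleles of the mice, and the others, shared by all the cells, are not described here. Lgr5 drives the Cre recombinase, so recombination starts in cells of the hair follicle lineage that use this promoter, and recombined cells carry YFP. YFP-positive cells were parted by surface Epcam into a positive and a negative sort and sequenced 1 cell per well by Smart-seq2, which reads full-length cDNA. The series has 383 wells, and of its 310 Epcam-negative single cells 47 were left out by the same limits. All Krtdap-high, middle and Krtdap-low cells share these alleles and the same sort. The labels name no animal, tumour, age or treatment that would part the cells, so the Epcam-positive cells are 1 sample and cells are not replicates. No test was therefore made and no p-value is given. Intervals are 95% and cover counting error only, because copies of 1 molecule made by PCR cannot be told from separate molecules here.

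Keratinocytes of stratified epithelium divide in a basal layer that rests on the basement membrane, where they make Krt5 and Krt14. As they leave that layer they switch to Krt1 and Krt10 and later build a cornified envelope from proteins such as involucrin, loricrin and the small proline-rich proteins. In wounds and in carcinomas, keratinocytes instead make Krt6, Krt16 and Krt17, and Krtdap belongs to the genes made as keratinocytes begin to differentiate.

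The Krtdap-high cells had 109743 to 603775 gene reads (median 391699) and the Krtdap-low cells 192455 to 730528 (median 421565). The median count of detected genes was 6996 in Krtdap-high and 6172 in Krtdap-low cells, and with each cell thinned to 100000 reads it was 5652.5 and 5161. The median mitochondrial share was 6.61% in Krtdap-high and 5.52% in Krtdap-low cells, and the ratio of gene reads to spike-in reads, a measure of RNA per cell, had a median of 228.1 in Krtdap-high and 181.6 in Krtdap-low cells. Both sets were spread over the plate, with 10 of 20 Krtdap-high and 11 of 20 Krtdap-low cells in plate columns 1 to 12. The well of the Epcam-positive sort labelled as holding 0 cells went against its label, with 99241 gene reads and Krtdap at 2308 CPM, and it enters no comparison.

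The epithelial identity of both sets was plain from its markers, since Krt14 and Krt5 were present in all 20 cells of each set. A gene is called present in a cell at 5 or more of 100000 thinned reads, which corresponds to 50 CPM. Epcam was present in 19 Krtdap-high and 20 Krtdap-low cells and Dsp, a desmosomal plaque protein, in 20 and 19. Neither set is named as differentiating or as basal, because the markers of these states went different ways. Krt1, the early differentiation keratin, was at 4.16 CPM in Krtdap-high cells, all from 1 cell, and had 0 reads in Krtdap-low cells. Its partner Krt10 was at 10.9 CPM in Krtdap-high and 18.4 CPM in Krtdap-low cells and was present in 1 cell of each set. The 6 basal markers Krt5, Krt14, Krt15, Col17a1, Itgb4 and Trp63 were all within 2-fold between the sets except Krt15. Other differentiation genes were higher, with 8 of 15 spinous genes and 14 of 19 cornified genes at 10 CPM or more in a set 2-fold or more higher in Krtdap-high cells, against 11.4% of all genes. The sets are called by their Krtdap level alone.

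The sequences around the transcription start of Krtdap and of 4 of the 7 antioxidant genes 2-fold higher in Krtdap-high cells are shown. They are RefSeq promoter windows of GRCm38.p6, from 250 bases before to 50 bases after the start, on the strand of the gene and written 5′ to 3′. Capitals mark matches to 2 motifs searched on both strands, the antioxidant response element core TGACNNNGC and the AP-1 site TGANTCA.
Krtdap, chr7:30787655-30787954, plus strand: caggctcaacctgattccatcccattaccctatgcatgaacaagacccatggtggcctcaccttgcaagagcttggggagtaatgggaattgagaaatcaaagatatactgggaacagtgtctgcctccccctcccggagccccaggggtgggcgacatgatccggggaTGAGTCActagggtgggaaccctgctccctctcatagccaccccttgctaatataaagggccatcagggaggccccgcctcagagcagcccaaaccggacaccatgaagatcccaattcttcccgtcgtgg
Gclm, chr3:122245307-122245606, plus strand: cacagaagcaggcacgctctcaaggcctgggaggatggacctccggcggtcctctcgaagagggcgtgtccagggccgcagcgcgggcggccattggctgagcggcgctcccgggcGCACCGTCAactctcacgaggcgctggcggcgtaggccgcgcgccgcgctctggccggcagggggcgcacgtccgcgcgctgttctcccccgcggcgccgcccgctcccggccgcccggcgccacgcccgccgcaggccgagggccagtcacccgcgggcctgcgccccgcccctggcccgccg
Srxn1, chr2:152105274-152105573, plus strand: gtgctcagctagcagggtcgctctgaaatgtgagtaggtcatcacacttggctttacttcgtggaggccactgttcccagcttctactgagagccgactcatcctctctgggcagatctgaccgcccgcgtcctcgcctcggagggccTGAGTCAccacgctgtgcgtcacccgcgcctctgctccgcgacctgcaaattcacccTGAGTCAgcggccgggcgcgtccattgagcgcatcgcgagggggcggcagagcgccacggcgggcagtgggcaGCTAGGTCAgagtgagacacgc
Gpx2, chr12:76795505-76795804, minus strand: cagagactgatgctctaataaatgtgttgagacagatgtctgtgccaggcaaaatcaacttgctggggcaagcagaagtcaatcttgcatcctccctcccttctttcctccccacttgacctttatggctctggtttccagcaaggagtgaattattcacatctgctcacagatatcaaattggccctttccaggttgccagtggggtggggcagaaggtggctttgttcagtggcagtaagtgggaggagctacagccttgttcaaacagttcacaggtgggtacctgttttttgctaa
Slc7a11, chr3:50443564-50443863, minus strand: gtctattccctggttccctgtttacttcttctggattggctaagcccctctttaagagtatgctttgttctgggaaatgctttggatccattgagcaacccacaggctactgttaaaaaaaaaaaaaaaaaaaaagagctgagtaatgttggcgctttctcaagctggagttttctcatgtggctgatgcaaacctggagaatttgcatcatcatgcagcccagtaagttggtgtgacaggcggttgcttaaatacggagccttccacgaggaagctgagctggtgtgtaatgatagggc
The Krtdap window held 1 AP-1 match, TGAGTCA, whose first base lies 81 bases before the start, and no match to the antioxidant core. The Gclm window held GCACCGTCA, a reverse-strand match to the antioxidant core, before the start. The Srxn1 window held GCTAGGTCA, another reverse-strand match, 28 bases after the start, and TGAGTCA at 2 places before it. None of these matches overlaps another. The Gpx2 and Slc7a11 windows held neither motif within these letters. Windows of Nqo1 and Gsto1, which were also 2-fold higher, held neither motif and are not shown. Among 32851 RefSeq promoter windows of the same length, 12.4% held the antioxidant core and 7.81% the AP-1 site, and a match is given as a description only.

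Krtdap (ENSMUSG00000074199.7) lies on chromosome 7 from 30787896 to 30791097 of GRCm38, and no other annotated gene overlaps it. Summed over the cells it was at 1947 CPM in Krtdap-high, 345 CPM in middle and 35.9 CPM in Krtdap-low cells. Single Krtdap-high cells had 1215, 1823 and 3415 CPM as the lowest, median and highest value, and Krtdap-low cells 0, 17.4 and 115.9 CPM, with 0 reads in 4 cells. The lowest Krtdap-high cell had 1215 CPM and the next cell below it 1206 CPM, while the highest Krtdap-low cell had 115.9 CPM and the next cell above it 125.2 CPM. The cells formed a continuous range with no empty stretch at either limit. Among cells above 50 CPM the widest step was 1.59-fold, between 760 and 1206 CPM, with 21 cells above it. The sets are the ends of this range.

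**Figure D1:**
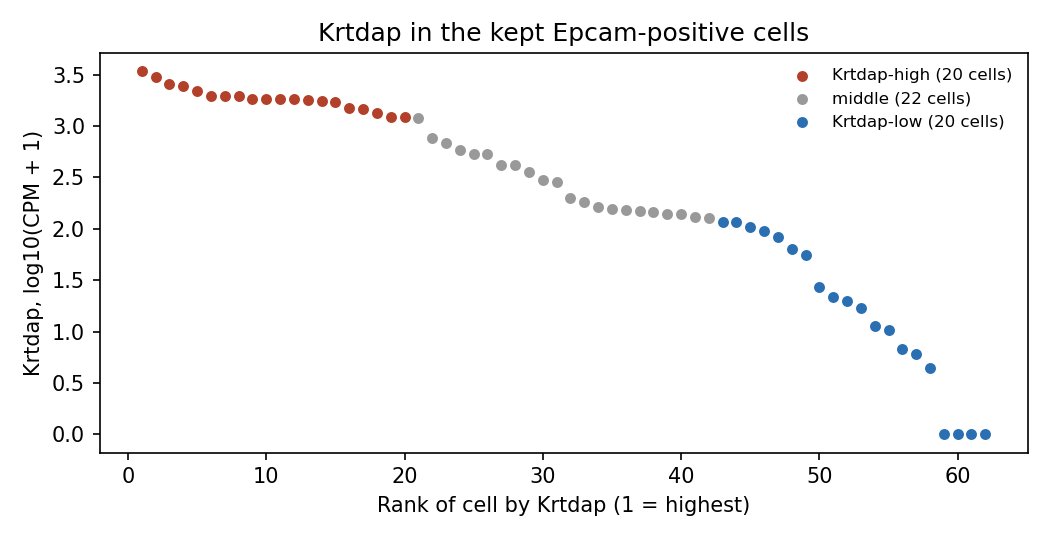
Krtdap in each of the 62 kept Epcam-positive cells, as log10(CPM + 1), against the rank of the cell from highest to lowest. The 20 Krtdap-high cells (red) lie at 1215 CPM or more, the 20 Krtdap-low cells (blue) at 115.9 CPM or less, and the 22 middle cells (grey) fill the range between them.

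Outside the Epcam-positive sort Krtdap was rarer. It was present in 28 kept Epcam-negative cells, a share of 10.6% (7.19% to 15.02%), with a median of 0 CPM, and 3 of those cells reached the level of the lowest Krtdap-high cell. The contrast of Krtdap was set by the ranking, so the levels of its genomic neighbours are given without weighing them against it. Of 11 annotated protein-coding genes within 100 kb, 4 were measured, Krtdap included. Dmkn, which encodes dermokine, a secreted epidermal protein, was at 1202 CPM in Krtdap-high and 600.1 CPM in Krtdap-low cells, a log2 ratio of 1.00 (0.95 to 1.05). A single cell held 34.5% of the Krtdap-high reads of Dmkn, and without it the ratio was 0.48. The ratio of Dmkn was under 2-fold in 6 of 13 alternatives. Sbsn, which encodes suprabasin, was at 18.6 CPM in Krtdap-high and 14.5 CPM in Krtdap-low cells, and Tmem147, which encodes a membrane protein of the endoplasmic reticulum, at 321 and 260.3 CPM.

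Levels were compared as the log2 ratio of Krtdap-high over Krtdap-low summed CPM, with 1 CPM added to each, and a positive ratio means more in Krtdap-high cells. A gene counted as measured at 10 CPM or more in 1 or both sets, which held for 9271 genes besides Krtdap. Of these, 11.4% (1059 genes) were 2-fold or more higher and 23.6% (2184 genes) 2-fold or more lower in Krtdap-high cells, and the median ratio was -0.20. Much of this background came from few cells, since 1 cell held over 40% of the reads of the higher set for 36.5% of the genes that were 2-fold higher and for 42.7% of those that were 2-fold lower. Such a gene is said to rest on 1 cell, and the number that did not is given for the main lists. The 40% limit takes each cell alone, also for 2 Krtdap-high cells with closely alike levels, described with the wound keratins. The comparison was repeated with 10 and with 31 cells per set. It was also repeated with a stricter cell filter (250000 gene reads, 3000 genes, 10% mitochondrial and 25% spike-in reads). Some values under these that end a 2-fold difference or move a ratio far are given beside the gene. A gene without such a value may have moved too. With 31 cells per set, 45 of 69 named genes that were 2-fold apart moved by over 1.5-fold. A list with 11.4% of its members higher and 23.6% lower would be like all measured genes.

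The keratins of wounds and carcinomas were higher in Krtdap-high cells, with the highest Krt6b and Krt16 in 2 cells of closely alike levels. Their list also held Krt79, a keratin of the upper hair follicle. All 5 measured members of 6 were 2-fold or more higher in Krtdap-high cells, against 11.4% of all genes. Of these, 3 did not rest on 1 cell, with the 2 alike cells counted apart. The median ratio was 2.92, which was the ratio of Krt79 itself. Krt6a, a type II keratin on chromosome 15 from 101689910 to 101694307, had 745, 3989 and 17176.5 CPM as the lowest, median and highest Krtdap-high cell and 3.40, 375 and 6001 CPM in Krtdap-low cells. The sets overlapped, but Krt6a was present in all 20 Krtdap-high, 22 middle and 16 Krtdap-low cells, and its summed ratio was 2.40 (2.37 to 2.43).

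Krt16, the type I partner of Krt6, had 4.23, 833 and 14989 CPM as the lowest, median and highest Krtdap-high cell and 0, 56.7 and 434 CPM in Krtdap-low cells. Its ratio was 4.43 (4.33 to 4.53), or 3.79 without the Krtdap-high cell with most of its reads. Krt6b was present in 11 Krtdap-high, 5 middle and 1 Krtdap-low cell, at 858 and 8.26 CPM in the high and low sets, a ratio of 6.54 that was 5.64 without 1 cell. The Krtdap-high cells of plate column 3 in rows B and C had closely alike levels. In that order, Krt6b reached 6101 and 7164 CPM, Krt16 11146 and 14989 CPM, and Sult2b1 1165 and 1273 CPM. Gclm differed more, with 807 and 394 CPM. Leaving out 1 of these cells keeps the other, and no ratio without both was made. Whether both wells held material of 1 cell was not tested. Krt17, another type I keratin, was present in all 20 Krtdap-high and 19 Krtdap-low cells at 8013 and 3208 CPM, a ratio of 1.32 that was 0.79 with 31 cells per set. Krt79, a keratin of the upper hair follicle, had 154.3 CPM in Krtdap-high and 19.5 CPM in Krtdap-low cells from a few cells, with a ratio of 2.92 that was 1.28 without 1 cell and 0.81 with 10 cells per set. Krt6a and Krt6b share most of their sequence, as do Krt14, Krt16 and Krt17, and how reads of 50 bases were split between them is not known. Keratin genes together took a median of 3.48% of the gene reads of a Krtdap-high cell and 1.80% of those of a Krtdap-low cell, and the part of this share in the keratin ratios was not tested.

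The basal genes did not part the sets. All 22 basal genes were measured, and 0 were 2-fold higher and 2 were 2-fold lower in Krtdap-high cells, against 11.4% and 23.6% of all genes. Of the 2 lower genes 1 did not rest on 1 cell. The median ratio was -0.02 beside -0.20 for all genes. Krt14 had 2406, 12712 and 38832 CPM as the lowest, median and highest Krtdap-high cell and 274.1, 6774 and 29042 CPM in Krtdap-low cells, a summed ratio of 0.59. Krt5 had a ratio of 0.37, Itgb4, a hemidesmosome integrin chain, 0.80, its partner Itga6 0.27, the hemidesmosome collagen Col17a1 -0.26 and Trp63, the p63 transcription factor of basal cells, -0.10. The ratios of Trp63 and Itga6 had opposite signs in plate columns 1 to 12 and 13 to 24. Krt15, a keratin of basal and follicle stem cells, was the main exception, but it rested on 1 Krtdap-low cell, at 4886 CPM. It was present in 2 Krtdap-high and 8 Krtdap-low cells, at 39.9 and 561 CPM, a ratio of -3.78 (-3.95 to -3.62) that was -3.11 without 1 cell. Lama5, a laminin chain of the basement membrane, was at 57.5 CPM in Krtdap-high and 133.8 CPM in Krtdap-low cells, present in 7 and 15 cells, a ratio of -1.21 that was -0.59 with 31 cells per set.

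**Figure D2:**
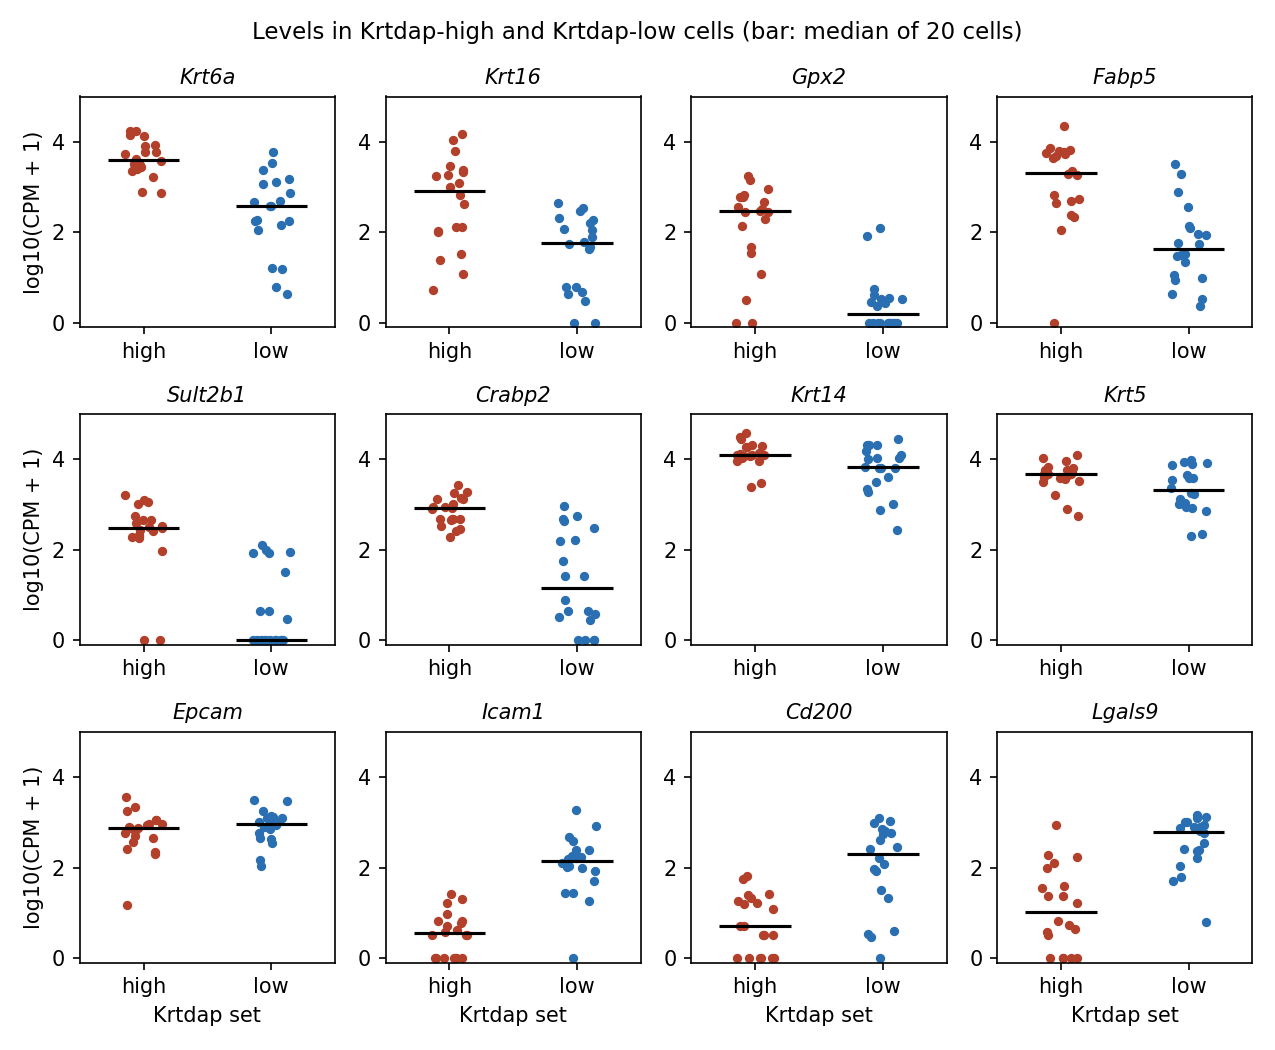
Levels of 12 genes in each Krtdap-high (red, left) and Krtdap-low (blue, right) cell as log10(CPM + 1), where each point is a cell and each bar the median of 20 cells. Krt14, Krt5 and Epcam overlapped across the sets, Krt6a, Fabp5, Gpx2, Sult2b1 and Crabp2 were higher in most Krtdap-high cells, and Icam1, Cd200 and Lgals9 were higher in most Krtdap-low cells.

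Many differentiation genes were higher in Krtdap-high cells, most of the cornified ones in few cells. Of 22 spinous genes 15 were measured, and 8 were 2-fold higher and 0 were 2-fold lower, against 11.4% and 23.6% of all genes. Their median ratio was 1.00, the ratio of Dmkn itself, which was under 2-fold in 6 of 13 alternatives. Of 40 cornified envelope genes 19 were measured, 14 were 2-fold higher and 2 were 2-fold lower, with a median of 2.83. Among the genes 2-fold higher, 5 of 8 spinous and 2 of 14 cornified genes did not have over 40% of their reads in 1 cell. Without the cell with most reads of each gene the medians were 0.48 and 1.88. A Krtdap-high cell had a median of 3 cornified genes present (range 0 to 13), a middle cell 2 (0 to 7) and a Krtdap-low cell 1 (0 to 3). At least 3 were present in 11 of 20 Krtdap-high and 3 of 20 Krtdap-low cells, and at least 5 in 6 and 0.

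Calm4, a calmodulin-like protein of differentiating skin, was present in 8 Krtdap-high and 0 Krtdap-low cells, at 131.02 and 0.826 CPM, a ratio of 6.18 (5.60 to 6.64). Krt13, a differentiation keratin of internal stratified epithelia, was present in 3 Krtdap-high and 0 Krtdap-low cells, at 51.1 CPM and 0.118 CPM from 1 read, with a ratio of 5.54 (4.96 to 5.70). Spink5, the protease inhibitor LEKTI of the granular layer, was present in 4 Krtdap-high and 0 Krtdap-low cells at 109.8 and 0.236 CPM, a ratio of 6.49 (5.90 to 6.75) that was 5.26 without 1 cell. Sprr2h, a small proline-rich protein of a family with near-identical members, was present in 4 Krtdap-high and 0 Krtdap-low cells and had a ratio of 5.11, or 4.25 without 1 cell. Ivl, which encodes involucrin, was present in 2 cells of each set, and its ratio of 1.14 was -0.99 without the 1 Krtdap-high cell that held 81.2% of the reads. Scel, which encodes sciellin, had a ratio of -2.84, and 1 Krtdap-low cell held 98.1% of its reads, without which the ratio was 1.05.

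Genes of fatty acid, sterol and retinoid handling included some of the closest partners of Krtdap. Of 14 measured lipid barrier genes 5 were 2-fold higher and 2 were 2-fold lower in Krtdap-high cells, with a median of 0.63. Of 11 measured retinoid genes 6 were higher and 2 lower, with a median of 1.04, against 11.4% and 23.6% of all genes. Among the retinoid genes only 2 of the 6 higher and 2 of the 2 lower did not rest on 1 cell. Among the lipid barrier genes 4 of the 5 higher and 0 of the 2 lower did not. Fabp5, the epidermal fatty acid binding protein, had 0, 2062 and 22531 CPM as the lowest, median and highest Krtdap-high cell and 1.37, 42.7 and 3262 CPM in Krtdap-low cells. It was present in 19 Krtdap-high, 18 middle and 11 Krtdap-low cells, with a ratio of 3.38 (3.33 to 3.44). Sult2b1, the sulfotransferase that makes cholesterol sulfate in the epidermis, had 0, 308.6 and 1658 CPM in Krtdap-high and 0, 0 and 127.6 CPM in Krtdap-low cells, in the same order of lowest, median and highest. Sult2b1 was present in 18 Krtdap-high, 14 middle and 5 Krtdap-low cells, with a ratio of 3.84 (3.66 to 4.02).

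Crabp2, the cellular retinoic acid binding protein that carries retinoic acid to the nucleus, had 196.7, 825 and 2673 CPM as the lowest, median and highest Krtdap-high cell and 0, 16.4 and 918 CPM in Krtdap-low cells. All 20 Krtdap-high cells and 9 Krtdap-low cells had it present, and its ratio was 2.64 (2.56 to 2.73). Stra6, the receptor through which cells take up retinol, was present in 17 Krtdap-high, 15 middle and 4 Krtdap-low cells, at 350.3 and 57.2 CPM in the high and low sets. Against these went Rdh10, which makes retinaldehyde from retinol, at 15.1 CPM in Krtdap-high and 59.8 CPM in Krtdap-low cells, and the nuclear receptor gene Rxra, at 20.7 and 60.1 CPM. Rdh10 was present in 1 Krtdap-high and 6 Krtdap-low cells, and Rxra in 2 and 8. The ratio of Rxra was -1.50, but -0.17 with 10 cells per set and -0.78 with 31.

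A part of the antioxidant genes was higher in Krtdap-high cells. All 21 were measured, 7 were 2-fold higher, against 11.4% of all genes, and 1 was 2-fold lower, with a median ratio of 0.53. None of the 7 higher genes had over 40% of its reads in 1 Krtdap-high cell. Gpx2, a glutathione peroxidase made in epithelia, on chromosome 12 from 76792333 to 76795554, had 0, 289.2 and 1772 CPM as the lowest, median and highest Krtdap-high cell and 0, 0.684 and 123.96 CPM in Krtdap-low cells. It was present in 15 Krtdap-high, 8 middle and 2 Krtdap-low cells, with a ratio of 5.40 (5.10 to 5.70) that was 3.44 with 31 cells per set, and was at 0.103 CPM in Epcam-negative cells. Slc7a11, the transporter that brings in cystine for glutathione synthesis, had 0, 106.2 and 1668 CPM in Krtdap-high and 0, 0 and 26 CPM in Krtdap-low cells, as lowest, median and highest. Slc7a11 was present in 12 Krtdap-high, 9 middle and 0 Krtdap-low cells, with a ratio of 5.78 (5.27 to 6.27). That ratio was 2.09 with the stricter cell filter and 2.24 with 31 cells per set. With 0 of 20 Krtdap-low cells, a share of up to 15% would still be allowed by counting error.

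Gclm, the modifier subunit of the enzyme that starts glutathione synthesis, had 2.12, 473 and 3792 CPM as the lowest, median and highest Krtdap-high cell and 0, 74.3 and 1267 CPM in Krtdap-low cells, a ratio of 2.83 (2.76 to 2.91). Gsta4, a glutathione transferase for lipid peroxidation products, was present in 18 Krtdap-high, 18 middle and 7 Krtdap-low cells, and its ratio of 3.61 was 3.01 without 1 cell. Gsto1, an omega-class glutathione transferase, was present in all 20 Krtdap-high and 18 Krtdap-low cells, at 2351 and 672 CPM, a ratio of 1.81 (1.76 to 1.85). The quinone reductase gene Nqo1 (375 and 57.6 CPM) and Srxn1, which encodes sulfiredoxin (198.5 and 37.1 CPM), completed the 7 and are named outside the rule for named genes, after their values were seen. Without 1 cell the ratio of Srxn1 was 1.73, against 2.39 with it.

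Not all antioxidant genes shared this direction. Gpx3, a secreted peroxidase, was at 2.47 CPM in Krtdap-high and 21.7 CPM in Krtdap-low cells, -1.68 as a ratio without 1 cell, -2.71 with it and -0.98 with 10 cells per set, and the other 13 genes were within 2-fold. Of the 7 higher genes, 6 had a promoter window in the RefSeq table, 2 of these, Gclm and Srxn1, held the antioxidant core, and 1, Srxn1, the AP-1 site. Gsta4 was not matched. In single Krtdap-high cells Gpx2 and Slc7a11 were present together in 10 of 20, and in 5 of 22 middle and 0 of 20 Krtdap-low cells, and Gpx2 and Gsta4 in 14, 8 and 1. Gpx2 and Krt6b were present together in 9 Krtdap-high, 2 middle and 0 Krtdap-low cells.

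**Figure D3:**
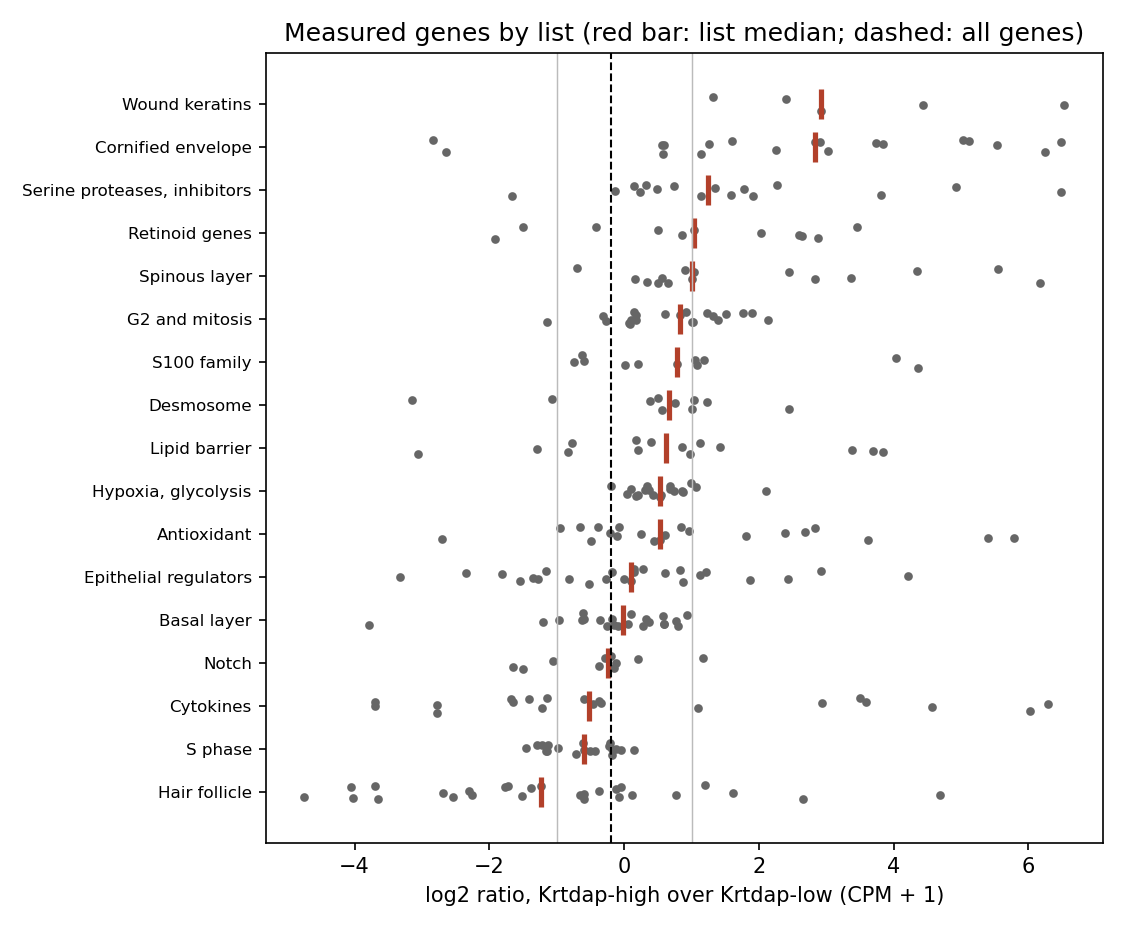
Log2 ratios of Krtdap-high over Krtdap-low cells for the measured genes (grey points) of 17 gene lists, with the median of each list (red bar), the median of all 9271 genes (dashed line, -0.20) and 2-fold either way (thin lines). The list of wound keratins had a median of 2.92, the ratio of its member Krt79. Cornified envelope genes had a median of 2.83, basal genes -0.02 and hair follicle genes -1.23.

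Some S100 genes and some genes of serine proteases and their inhibitors were higher in Krtdap-high cells. S100a9 and S100a8, which form calprotectin, were present together in 9 Krtdap-high, 5 middle and 2 Krtdap-low cells. S100a9 had 0, 49.9 and 1647 CPM as the lowest, median and highest Krtdap-high cell and 0, 0 and 136.9 CPM in Krtdap-low cells, a ratio of 4.36 (4.12 to 4.61). S100a8 had a ratio of 4.03, or 3.07 without 1 cell. Of 11 measured S100 genes 5 were 2-fold higher and 0 lower, against 11.4% and 23.6% of all genes. Of the 5 higher ones 4 did not rest on 1 cell. S100a6, another calcium-binding protein, was present in all 20 Krtdap-high and 19 Krtdap-low cells, at 9018 and 4249 CPM, a ratio of 1.09 that was 0.83 with the stricter cell filter and 0.79 with 31 cells per set. Of 16 measured serine proteases and inhibitors 9 were 2-fold higher and 1 lower, against the same shares of all genes. Their median was 1.25, and 6 of the higher ones did not rest on 1 cell. Spint1, the inhibitor of matriptase, was at 112.05 CPM in Krtdap-high and 22.4 CPM in Krtdap-low cells, and Wfdc2, a small secreted inhibitor, went the other way at 100.3 and 321 CPM.

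Cytokine genes went both ways, with 7 of 20 measured genes 2-fold higher and 9 were 2-fold lower, a share of lower genes above the 23.6% of all genes, and 1 and 3 of these did not rest on 1 cell. Il1rn, the antagonist of the interleukin 1 receptor, was present in 8 Krtdap-high, 7 middle and 1 Krtdap-low cell, at 160.8 and 5.78 CPM in the high and low sets, a ratio of 4.58 (4.22 to 4.95). The Il1rn ratio was 2.557 with the stricter cell filter, 4.37 with 10 cells per set and 2.473 with 31. The interleukin 10 family gene Il24 was present in 7 cells of each set, and its ratio of 1.10 was -1.18 without the 1 Krtdap-high cell that held 80.8% of its reads. Of 25 measured transcription factors of keratinocytes 6 were 2-fold higher and 7 were 2-fold lower, against 11.4% and 23.6% of all genes. Of these, 3 of the 6 higher and 5 of the 7 lower did not rest on 1 cell. Zfp750, a zinc finger factor of terminal differentiation, was present in 7 Krtdap-high and 1 Krtdap-low cell, at 146.4 and 18.4 CPM. Grhl3, a factor of late epidermal differentiation, was present in 3 Krtdap-high and 0 Krtdap-low cells. Its ratio was 4.21, or 3.46 without 1 cell, 4.856 with 10 cells per set and 1.982 with 31. Cebpd, a leucine zipper factor induced by inflammation, was lower, present in 3 Krtdap-high, 11 middle and 11 Krtdap-low cells, with a ratio of -3.32 (-3.54 to -3.12), or -2.69 without 1 cell. The Cebpd ratio was -1.965 with the stricter cell filter, -4.525 with 10 cells per set and -1.138 with 31.

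Beyond the lists, 15 genes led in Krtdap-high cells among 863 that had at least 50 CPM, were present in at least 10 of 20 cells, kept their direction in plate columns 1 to 12 and 13 to 24 and had at most 40% of their reads in 1 cell. In order of ratio they were Teddm3, Slc7a11, Fam25c, Gpx2, Krt16, Pitx1, S100a9, Sult2b1, Gsta4, Igfbp2, Fabp5, Ptprz1, Ptgs1, Gclm and Rapgef5. Teddm3 had 0, 43.9 and 223.1 CPM as the lowest, median and highest Krtdap-high cell and 0, 0 and 2.46 CPM in Krtdap-low cells, a ratio of 5.89 (5.30 to 6.16) with 2 reads in the Krtdap-low set. Fam25c was present in 10 Krtdap-high, 3 middle and 0 Krtdap-low cells, with a ratio of 5.54 (4.97 to 6.02). Pitx1, a homeobox factor of the hindlimb, was present in 11 Krtdap-high, 10 middle and 1 Krtdap-low cell, at 162.7 and 6.96 CPM in the high and low sets. Ptprz1, a receptor tyrosine phosphatase, was at 246.97 CPM in Krtdap-high and 24.9 CPM in Krtdap-low cells, Ptgs1, a prostaglandin synthase of early differentiation, at 172.5 and 23.3 CPM, and Igfbp2, an insulin-like growth factor binding protein, at 194.6 and 16.9 CPM.

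The 15 genes that led in Krtdap-low cells, among 901 under the same conditions, were Cd200, Lrrc8c, Tenm2, Thbs1, Timp3, Deptor, Lhfp, Angptl4, Tyw1, Pde4b, Cebpd, Lgals9, Mex3c, Samd5 and Parm1. Cd200, a surface glycoprotein that dampens myeloid cells and marks hair follicle stem cells, had 0, 4.23 and 65.5 CPM as the lowest, median and highest Krtdap-high cell and 0, 207.9 and 1250.2 CPM in Krtdap-low cells. It was present in 3 Krtdap-high, 14 middle and 14 Krtdap-low cells, with a ratio of -4.46 (-4.72 to -4.22) that was -2.02 with the stricter cell filter and -2.03 with 31 cells per set. Lgals9, the lectin galectin-9, had 0, 10.5 and 854 CPM in Krtdap-high and 5.25, 604 and 1435 CPM in Krtdap-low cells, as lowest, median and highest. Lgals9 was present in 6 Krtdap-high, 20 middle and 19 Krtdap-low cells, with a ratio of -3.28 (-3.42 to -3.15) that was -1.79 with 31 cells per set.

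Several of these genes encode matrix and secreted proteins. Thbs1, the matrix protein thrombospondin 1, had 0, 8.01 and 844 CPM as the lowest, median and highest Krtdap-high cell and 0, 309.5 and 7394 CPM in Krtdap-low cells, and was present in 7, 17 and 17 Krtdap-high, middle and Krtdap-low cells. Timp3, an inhibitor of metalloproteases bound to matrix, was at 8.58 CPM in Krtdap-high and 148.6 CPM in Krtdap-low cells, and Angptl4, a secreted inhibitor of lipoprotein lipase, at 17.5 and 236.6 CPM. Pde4b, a cyclic AMP phosphodiesterase, was at 44.5 CPM in Krtdap-high and 510.5 CPM in Krtdap-low cells, and Deptor, an inhibitor of mTOR, at 12.6 and 200.1 CPM. Lrrc8c, a subunit of volume-regulated anion channels, was present in 0 Krtdap-high, 10 middle and 11 Krtdap-low cells.

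Icam1, an adhesion molecule for leukocytes on chromosome 9 from 21015985 to 21028817, had the lowest correlation with Krtdap of all genes tried. It had 0, 2.51 and 25.4 CPM as the lowest, median and highest Krtdap-high cell and 0, 141.2 and 1861 CPM in Krtdap-low cells, and was present in 0 Krtdap-high, 12 middle and 16 Krtdap-low cells. Its ratio was -5.43 (-5.82 to -5.06), -2.96 with 31 cells per set, or -4.78 without the Krtdap-low cell that held 40.5% of its reads, a share just above the 40% limit, which kept it out of the 15 leading genes.

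**Figure D4:**
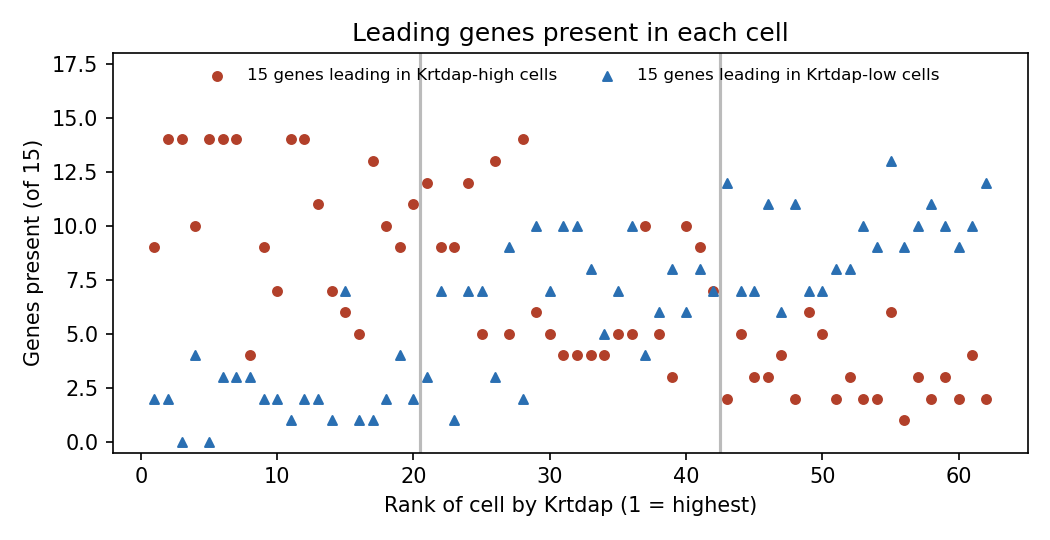
Number of the 15 genes leading in Krtdap-high cells (red circles) and of the 15 leading in Krtdap-low cells (blue triangles) that were present in each of the 62 cells, against the rank of the cell by Krtdap, with grey lines at the limits of the sets. Krtdap-high cells had 4 to 14 of the first and 0 to 7 of the second, Krtdap-low cells 1 to 6 and 6 to 13.

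The leading genes were chosen by their difference between these cells, so their counts per cell only describe how far single cells share it. A Krtdap-high cell had a median of 10.5 of the 15 genes leading in Krtdap-high cells present and a Krtdap-low cell 3. Of the 15 genes leading in Krtdap-low cells, a Krtdap-high cell had a median of 2 present and a Krtdap-low cell 9.5. The 22 middle cells, which took no part in the choice, lay between, with medians of 5.5 and 7. In the kept Epcam-negative cells the medians were 2 and 7. Timp3 was at 435 CPM in Epcam-negative cells, Thbs1 at 1598 CPM and Lgals9 at 385 CPM.

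Over all 62 cells the genes most like Krtdap by Spearman correlation of CPM, among 6293 genes present in at least 10 cells, were Fam25c (0.69), Krt6a (0.68), Crabp2 (0.67), Sult2b1 (0.67), Gsto1 (0.65), Esd (0.64), Rab25 (0.63), Slc7a11 (0.61), Gpx2 (0.60) and Fabp5 (0.60). The least alike were Icam1 (-0.67), Lgals9 (-0.62), Angptl4 (-0.62), Lamb1 (-0.60) and Nfix (-0.60). These are descriptions over cells of 1 sample that share a plate and a scaling to total reads. Within the 22 middle cells alone the values were 0.60 for Fam25c, 0.41 for Rab25, 0.40 for Esd, 0.39 for Fabp5, 0.19 for Crabp2, 0.10 for Slc7a11, -0.39 for Icam1 and -0.51 for Angptl4. Rab25, a small GTPase of epithelial recycling endosomes, was at 468 CPM in Krtdap-high and 103.7 CPM in Krtdap-low cells and was present in 19 and 9 cells. Esd, esterase D, was at 1170.2 CPM in Krtdap-high and 406 CPM in Krtdap-low cells, Lamb1, a laminin chain, at 48.2 and 216.5 CPM, and the transcription factor gene Nfix at 16.2 and 118.03 CPM.

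**Figure D5:**
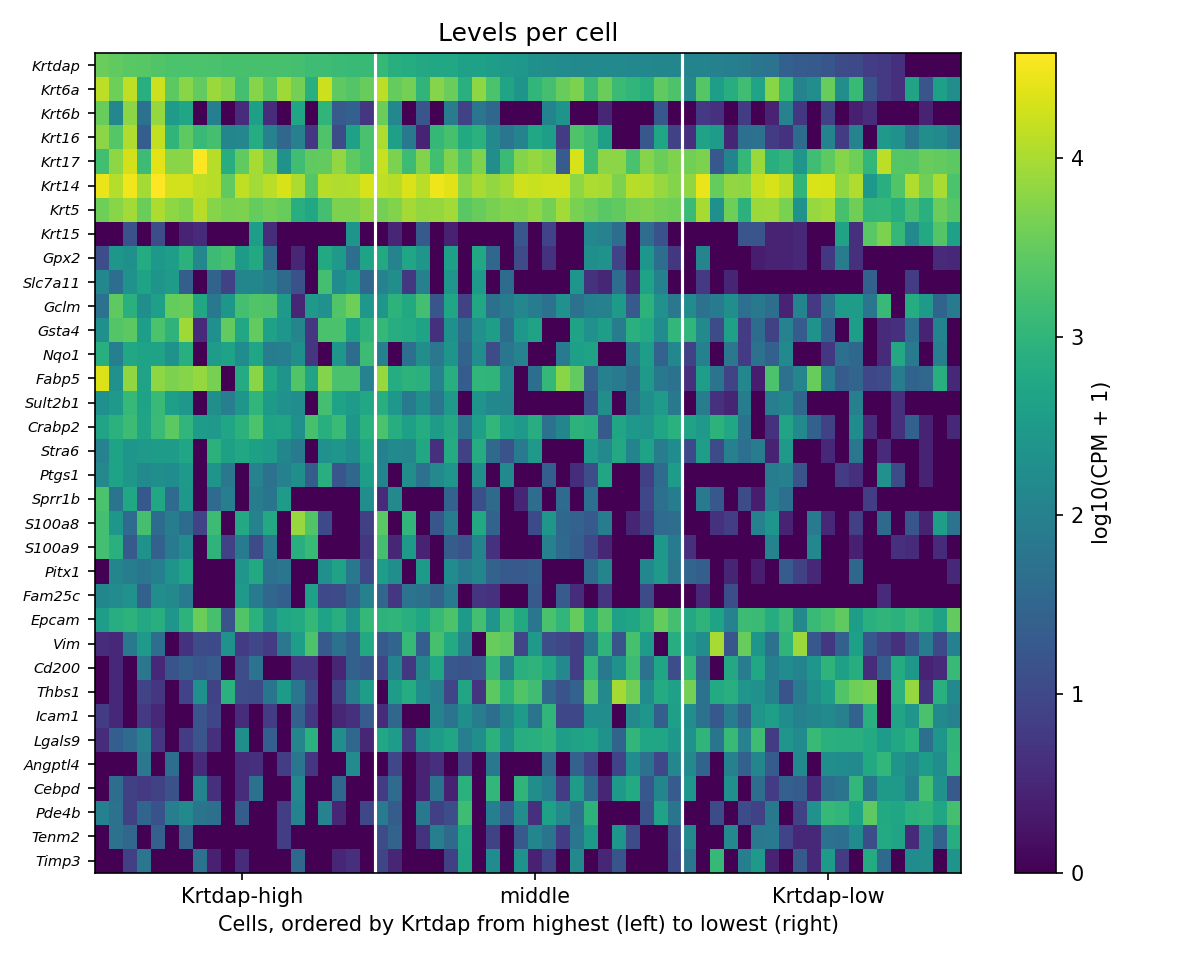
Levels of Krtdap and of 33 other genes (rows) in each of the 62 kept Epcam-positive cells (columns, ordered by Krtdap from highest at the left to lowest at the right), as log10(CPM + 1), with white lines between Krtdap-high, middle and Krtdap-low cells. Krt14 and Krt5 were present in all cells, while Gpx2, Slc7a11 and Fam25c thinned out to the right, where they were present in 2, 0 and 0 of 20 Krtdap-low cells, and Icam1 to the left, where it was present in 0 of 20 Krtdap-high cells.

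Many genes of the hair follicle lineage were lower in Krtdap-high cells. Of 27 measured genes 14 were 2-fold or more lower, against 23.6% of all genes, and 4 were higher, with a median of -1.23. Of the 14 lower genes 8 did not have over 40% of their reads in 1 Krtdap-low cell. Lgr5, the stem cell receptor whose promoter drives Cre in this model, was present in 0 Krtdap-high, 0 middle and 4 Krtdap-low cells, at 1.82 and 35.8 CPM in the high and low sets, a ratio of -3.70 (-4.23 to -3.15) that was -2.97 without 1 cell. Nfatc1, a factor of quiescent follicle stem cells, was at 0.260 CPM from 2 reads in Krtdap-high and 32.8 CPM in Krtdap-low cells, a ratio of -4.75 (-5.04 to -4.10) that was -3.85 without 1 cell. Lrig1, a marker of follicle junction cells, was present in 1 Krtdap-high and 7 Krtdap-low cells, at 11.7 and 59.96 CPM. Sox9, a follicle factor, was present in 17 Krtdap-high and 19 Krtdap-low cells, with a ratio of -0.60. Cd34, a surface marker of the mouse follicle bulge, went the other way, with 0, 524 and 1212.5 CPM as the lowest, median and highest Krtdap-high cell and 0, 8.31 and 605 CPM in Krtdap-low cells, a ratio of 2.65 (2.53 to 2.78).

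Of 10 measured Notch genes 1 was 2-fold higher and 3 were 2-fold lower, against 11.4% and 23.6% of all genes. Their median was -0.24, close to that of all genes. The ligand genes Jag1 and Jag2 were lower in Krtdap-high cells. Jag1 was present in 16 Krtdap-high and all 20 Krtdap-low cells, at 218.2 and 684 CPM, a ratio of -1.64 (-1.72 to -1.56), and Jag2 in 3 and 8 cells, a ratio of -1.50 (-1.77 to -1.25) that was -0.62 with 31 cells per set. The receptor gene Notch1 (-0.28) and the target Hes1 (-0.16) were within 2-fold, with opposite signs in plate columns 1 to 12 and 13 to 24.

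The shares of cells with proliferation markers overlapped within counting error. Mki67 or Top2a was present in 7 of 20 Krtdap-high cells (35%, 15.4% to 59.2%), 6 of 22 middle cells (27.3%, 10.7% to 50.2%) and 6 of 20 Krtdap-low cells (30%, 11.9% to 54.3%), so a difference was not detectable at this number of cells. The medians of the lists of the cell cycle phases went apart. None of 19 measured S phase genes was 2-fold higher and 6 were lower, with a median of -0.59. Of 21 genes of G2 and mitosis 9 were higher and 1 was lower, with a median of 0.83, against 11.4% and 23.6% of all genes. Only 5 of these 9 and 4 of the 6 lower S phase genes did not rest on 1 cell. At least 3 genes of G2 and mitosis were present in 9 Krtdap-high and 8 Krtdap-low cells, and at least 5 in 8 and 7. Mcm7, a subunit of the replication helicase, was present in 6 Krtdap-high and 15 Krtdap-low cells, at 48.7 and 121.6 CPM, a ratio of -1.30 (-1.47 to -1.13) that was -0.58 with 10 cells per set. Ube2c, the ubiquitin-conjugating enzyme of mitotic exit, was present in 8 Krtdap-high and 3 Krtdap-low cells, at 173.3 and 45.7 CPM, a ratio of 1.90 (1.74 to 2.06). The 2-fold difference of Ube2c was lost with the stricter cell filter (0.66) and with 31 cells per set (0.48). Both lists together had a median of -0.09 over 40 genes, which was 0.91 with the 10 highest and 10 lowest cells.

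Of 10 measured desmosome genes, which hold keratinocytes together, 4 were 2-fold higher and 2 lower, against 11.4% and 23.6% of all genes, with a median of 0.66. None of the 4 higher genes rested on 1 cell, with Dsp at 1064 CPM in Krtdap-high and 516 CPM in Krtdap-low cells and the desmosomal cadherin gene Dsg3 at 194.2 and 81.9 CPM. With 31 cells per set the ratios of Dsp and Dsg3, 1.04 and 1.24, were 0.40 and 0.87. Of 14 measured tight and adherens junction genes 3 were higher and 2 lower, against the same shares of all genes, and 3 and 1 of these did not rest on 1 cell. Cldn8, a claudin, was present in 9 Krtdap-high and 1 Krtdap-low cell, with a ratio of 5.14 (4.73 to 5.55), whereas Cldn3 was present in 0 and 4 cells, with a ratio of -5.06 that was -4.28 without 1 cell. With 31 cells per set the ratios of Cldn8 and Cldn3 were 2.518 and -2.847, and with the stricter cell filter 6.088 and -2.047. Epcam itself had 14.2, 749 and 3611 CPM as the lowest, median and highest Krtdap-high cell and 107.9, 914 and 3128 CPM in Krtdap-low cells, a ratio of -0.09. Of 11 measured mesenchymal genes 3 were higher and 3 lower, against 11.4% and 23.6% of all genes, and 1 and 2 of these did not rest on 1 cell. Vim, the mesenchymal intermediate filament, was present in 7 Krtdap-high and 10 Krtdap-low cells, at 156.9 and 966 CPM, a ratio of -2.61 (-2.70 to -2.53) that was -1.90 without 1 cell and -0.87 with 10 cells per set.

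Hypoxia and glycolysis genes had a median of 0.53, with 18 of 19 above 0 but few past 2-fold, and Ly6 and surface genes a median of 0.74. Among genes 2-fold higher and lower in Krtdap-high cells were 2 and 0 of 19 measured hypoxia and glycolysis genes, 0 and 3 of 18 early response genes, 1 and 3 of 13 interferon and MHC genes, and 1 and 2 of 13 p53 genes. They also included 2 and 2 of 11 EGF family genes, 1 and 3 of 14 heat shock and unfolded protein genes, 4 and 3 of 12 Ly6 and surface genes, and 1 and 0 of 5 connexin genes. Among all genes 11.4% were 2-fold higher and 23.6% lower, and the counts of these lists are given as a description only. None of the 4 higher Ly6 and surface genes rested on 1 cell. Cdkn1a, the cell cycle inhibitor p21 and a p53 target, was at 653 CPM in Krtdap-high and 543 CPM in Krtdap-low cells, with opposite signs in plate columns 1 to 12 and 13 to 24.

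Defining markers of other cell types had few or no reads in both sets. Of 14 immune markers 3 were measured, with a summed level per cell of 0 to 76.2 CPM in Krtdap-high and 0 to 434 CPM in Krtdap-low cells, and the pan-leukocyte gene Ptprc had 0 reads in both sets. Lyz2, a lysozyme of myeloid cells, had 0 reads in Krtdap-high cells and was present in 2 Krtdap-low cells. In 1 Krtdap-low cell 4 of the 14 immune markers were present, while Krtdap-high and middle cells had at most 1. Whether that well held more than 1 cell was not tested. Of 9 fibroblast markers 3 were measured, with 31.6 to 1734 CPM in Krtdap-high and 10.2 to 1982 CPM in Krtdap-low cells, mostly from Gsn, which keratinocytes also make, at 301.2 CPM in Krtdap-high and 397 CPM in Krtdap-low cells. Dcn, a dermal proteoglycan, was present in 1 Krtdap-high and 3 Krtdap-low cells. None of 8 endothelial and of 5 erythroid markers was measured, 1 of 6 pericyte, 1 of 7 melanocyte and 4 of 9 sebocyte markers were, and the defining markers Kdr, Rgs5, Mlana, Mc5r, Hbb-bs and Hba-a1 had 0 reads in both sets. The part of RNA per cell, keratin share and these few reads in the ratios was not tested.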

How the data were processed

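The submitters' processing notes name cutadapt 1.13, STAR 2.5.2b and HTSeq 0.6.0 with build GRCm38, for reads 50 bases long. The deposited values are the authors' read counts per gene and spike-in in each well, while the sources used here give neither the annotation release nor the strand setting. Counts of 49585 genes and 92 spike-ins were read, and symbols were taken from GENCODE vM21 for 49326 genes matched without version and for none of the other 259. Counts were summed over the cells of a set and scaled to CPM with Python 3.11.15, numpy 2.4.6, pandas 2.3.3 and scipy 1.17.1, and TMM factors came from edgeR 4.0.16 in R 4.3.3. The ratios and their intervals were tested on simulated summed counts with counting error only. That simulation held no single cells, so it could not test the ranking, the presence calls or the weight of 1 cell.

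Intervals are exact 95% intervals, Poisson for CPM, conditional binomial for ratios and Clopper-Pearson for shares. For a gene with 0 reads in a set, 3 reads over that set were the limit, and setting such genes at it moved no median of a list given here. Fixed genes were named, along with up to 4 members of each list with the largest ratios or any member 2-fold against its median, the 15 genes leading each way, the 10 most and 5 least like Krtdap, and measured neighbours within 100 kb. Some genes that this rule names are not reported here. The sets, members and lists were chosen with earlier results of these data known. Alternatives were other scalings, pseudocounts, filters, set sizes and parts of the plate.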

Additional observations from a re-analysis of the deposited data

Results flagged for a closer look

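The well of the Epcam-positive sort labelled as holding 0 cells gave Krtdap reads, which no comparison uses. It had 99241 gene reads in 8248 genes, 7.66% of its reads were spike-ins, and Krtdap was at 2308 CPM (2018 to 2627), within the range of the Krtdap-high cells. Krt14 was at 9029 CPM in it. The 0-cell well of the Epcam-negative sort had 4018 gene reads, 76.2% spike-in reads and 1 Krtdap read, which gave 248.9 CPM (6.30 to 1387). The well of 50 Epcam-negative cells had 39 Krtdap reads, or 251.8 CPM (179.04 to 344). What the first well held was not tested.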

How the results depend on the processing

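No paired analysis was possible because no test was made and the cells carry no shared replicate numbers.

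Of 69 named genes with a ratio of 2-fold or more, 65 kept their direction in all 13 alternatives and 52 stayed 2-fold or more apart. The 4 that lost their direction were Krt1 (0 in plate columns 1 to 12 and without its top cell), Ivl (-3.04 in plate columns 13 to 24 and -0.99 without its top cell), Il24 (-0.63 with 10 cells per set and -1.18 without its top cell) and Scel (0.92 in plate columns 1 to 12, 0.12 with the stricter cell filter and 1.05 without its top cell). Ratios moved by over 1.5-fold in at least 1 alternative for 66 of the 69, among them 45 with 31 cells per set, 43 with 10, 39 in plate columns 13 to 24 and 25 with the stricter cell filter, and none with the 3 scalings. The counts of kept directions and differences are no independent support. Leading genes were chosen to keep their direction in both plate parts, so that outcome was fixed for them. Many other named genes were chosen by their ratios in these cells, and the alternatives largely reuse the same cells.

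The numbers of genes 2-fold higher and lower, 1059 and 2184, depended on how few reads or cells could decide a ratio. They were 613 and 1417 with a pseudocount of 10 CPM, 2031 and 3655 with genes at 1 CPM or more, and 702 and 1261 without the cell with most reads of each gene. The number of higher genes was also 1953 with 10 cells per set, 676 with 31 and 2204 in plate columns 13 to 24. TMM factors, median-of-ratios factors and spike-in scaling moved the median of all genes up by 0.17, 0.15 and 0.14, and the share of higher genes among those 2-fold apart to 41.7%, 40.6% and 39.96%, against 32.7% in CPM. It was 44.95% in plate columns 13 to 24.

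The median of the cornified genes, 2.83, was 1.58 with the larger pseudocount, 3.77 with 10 cells per set, 0.95 with 31, 3.23 and 3.43 in plate columns 1 to 12 and 13 to 24, and 1.88 without top cells. The median of the spinous genes, 1.00, was 1.16, 1.14 and 1.134 with the 3 scalings, 1.06 with the mean CPM over cells, 0.73 with the stricter filter, 1.43 with 10 cells per set, 0.66 with 31, 1.21 and 1.22 in the plate parts and 0.48 without top cells. The basal median, -0.02, was 0.14, 0.12 and 0.11 with the 3 scalings, -0.16 with the stricter filter, -0.37 with 10 cells per set, -0.23 with 31, and 0.32 and -0.52 in the plate parts. The cell cycle median, -0.09, was 0.073 with TMM factors, 0.91 with 10 cells per set, 0.14 with 31, -0.35 and 0.19 in the plate parts and 0.12 without top cells. The signs of these last medians thus changed with the scaling and the cells chosen, and the cause was not tested. With 20 cells per set, shares of cells are known only within wide intervals.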
